A study of Mus musculus with 6 samples.

Results

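The constitutive proteasome subunits were followed in cultured mouse female germline stem cells (FGSCs) after knockdown of CTCF. They were taken as the protein-coding symbols beginning with Psma, Psmb, Psmc or Psmd and a digit, without the tissue-restricted catalytic subunits Psmb8, Psmb9, Psmb10 and Psmb11. The rule matched 36 of 24732 symbols with an FPKM value (fragments normalized for transcript length and sequencing depth, summed here over the transcripts of a symbol). Of these, 15 belong to the core particle and 17 to the regulatory particle. The other 4 are not subunits of the finished proteasome. Psmd5, Psmd9 and Psmd10 are chaperones that help to assemble the base of the regulatory particle. Psmc3ip is a cofactor of meiotic recombination and was matched because its symbol begins with that of Psmc3.

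The study compared 3 control samples with 3 samples that carried a short hairpin RNA against CTCF (shCTCF), the zinc finger protein that anchors chromatin loops. All 6 samples were C57BL/6 FGSC cultures of more than 20 passages, grown on inactivated STO feeder cells. The methods of the study describe its FGSCs as isolated from the ovaries of 6-day-old mice with the Ddx4-Cre and mT/mG transgenes. The hairpin was of 1 sequence and was delivered by lentivirus with puromycin selection, and what the control samples received was not stated in the sources used here. Nothing in the labels says that the replicates came from separate cultures, so p-values measure the spread between these samples, which may be technical.

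The proteasome is the large protease that removes ubiquitin-tagged proteins from the cytosol and nucleus. Its core particle is a barrel of alpha rings, which gate the entrance, around beta rings, which hold the proteolytic sites. The regulatory particle sits on the end of the barrel as a base with a ring of ATPases, which unfold the substrate, and a lid, which removes ubiquitin. Subunit genes are known to be induced together by the transcription factor Nfe2l1 when proteasome activity falls short, and lymphoid and myeloid cells and cells exposed to interferon exchange catalytic subunits for the immune-type Psmb8, Psmb9 and Psmb10.

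Ctcf itself was listed at 58.2, 56.1 and 53.5 FPKM in the control and at 0.74, 0.55 and 0.629 FPKM in the shCTCF samples. The total of the count table was between 5322636 and 7044272 fragments in 5 samples, and it was 1686052 in control replicate 2, and the main values that changed without that library are given beside the genes. The markers of the labelled cell type were nearly absent: of the 6 FGSC markers, 5 (Ddx4, Pou5f1, Dppa3, Gfra1 and Dazl) were under 1 FPKM in every sample, and the summed level of the 6 was 0 to 1.21 FPKM in the control and 10.5 to 11.4 FPKM in shCTCF, nearly all of it Ifitm3. Of 10 mast and myeloid cell markers, 5 (Ptprc, Kit, Cpa3, Gata2 and Ctsg) had a control mean of at least 10 FPKM. In contrast, 3 (Fcer1a, Ms4a2 and Tpsb2) were under 1 FPKM in every sample. The summed level of the 10 was 1592 to 1637 FPKM in the control and 1623 to 1682 FPKM in shCTCF. The members of this list did not move together, since of 7 tested 2 were lower and 3 were higher, with log2 fold changes from -5.55 to 4.07. The summed level of 10 fibroblast markers was 12.1 to 13 FPKM in the control and 8.26 to 8.64 FPKM in shCTCF, and of the 5 tested 3 were lower and 2 were higher (-1.89 to 1.31). The part of these in the proteasome results was not tested.

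Most of the constitutive proteasome was downregulated on the FPKM as deposited, with a larger share of the core than of the regulatory particle past the threshold. A symbol was tested when its mean was at least 1 FPKM, with limma on log2(FPKM + 1) and a threshold of 0.05 for the adjusted p. Of the 36 symbols 35 were tested, of which 21 were lower in shCTCF, 2 were higher and 12 did not pass the threshold. Over all 9976 symbols tested, 44.2% were lower and 28.8% were higher. Of the 14 core subunits tested 12 were lower and 0 were higher, whereas of the 17 regulatory subunits 7 were lower and 1 was higher. That is 85.7% of the core and 41.2% of the regulatory particle lower, and the difference between the particles was not tested. Without control replicate 2, the smallest library, 24 members were lower and 2 higher, with 13 core and 9 regulatory subunits among the lower ones, beside 47.8% of all symbols lower and 31.3% higher in that fit. As these are bulk samples, fewer cells of a type and less RNA per cell cannot be told apart.

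The whole FPKM table was shifted, so the direction of the smaller changes depended on the scaling. The median log2 fold change of all symbols tested was -0.17, and the median was -0.40 over the core and -0.15 over the regulatory particle. Relative to all symbols, the core median was thus lower by a log2 value of -0.22, and the regulatory particle lay at 0.025. With all samples set to equal medians, 12 of the 35 members were lower and 7 were higher, beside 35.6% of all symbols lower and 35.6% higher. The core then had 6 lower subunits and 1 higher, and the regulatory particle 4 lower and 5 higher. The share of members that were lower, 34.3%, was then near that of all symbols, and the share that were higher, 20%, was below it.

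Between the scalings, 10 subunits were lower on the FPKM as deposited, with equal medians, with quantile normalization and, for those with 1 transcript accession, on counts. They were Psma1, Psma5, Psma7, Psmb1, Psmb3 and Psmb5 of the core and Psmc2, Psmd1, Psmd2 and Psmd3 of the regulatory particle. That is 32.3% of the 31 subunits tested, beside 35.2% of all symbols that met the same condition. Of these 31, which leave out subunits with names outside the rule, Psmd4 was the single one higher under every scaling (3.23%, beside 28% of all symbols). With each library left out in turn, 8 of the 10 lower subunits kept their call on both the deposited and the median-scaled values. The exceptions, both with equal medians in the limma fit, were Psmb3 without shCTCF replicate 1 (-0.45, adjusted p = 0.0546) and Psma7, which was lost without control replicate 3 (-0.13, adjusted p = 0.141) or any shCTCF library (-0.19 to -0.16, adjusted p of 0.0614 or more). On counts, Psmb5, which is among the 8, lost its call without control replicate 3 (-0.34, edgeR adjusted p = 0.063) or shCTCF replicate 2 (-0.27, edgeR adjusted p = 0.085). Of the 6 subunits higher with equal medians, Psmc6, Psmd4 and Psmd12 kept their call with each library left out, and Psmb7, Psmd8 and Psmd13 did not (limma adjusted p up to 0.0669, 0.108 and 0.148). As deposited, the calls of Psma2, Psmb4, Psmc3, Psmd7 and Psmd11 were each lost without at least 1 library, with limma adjusted p up to 0.118, 0.101, 0.0664, 0.056 and 0.0994, and that of Psmd4 in 4 cases (limma adjusted p up to 0.0718).

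**Figure D1:**
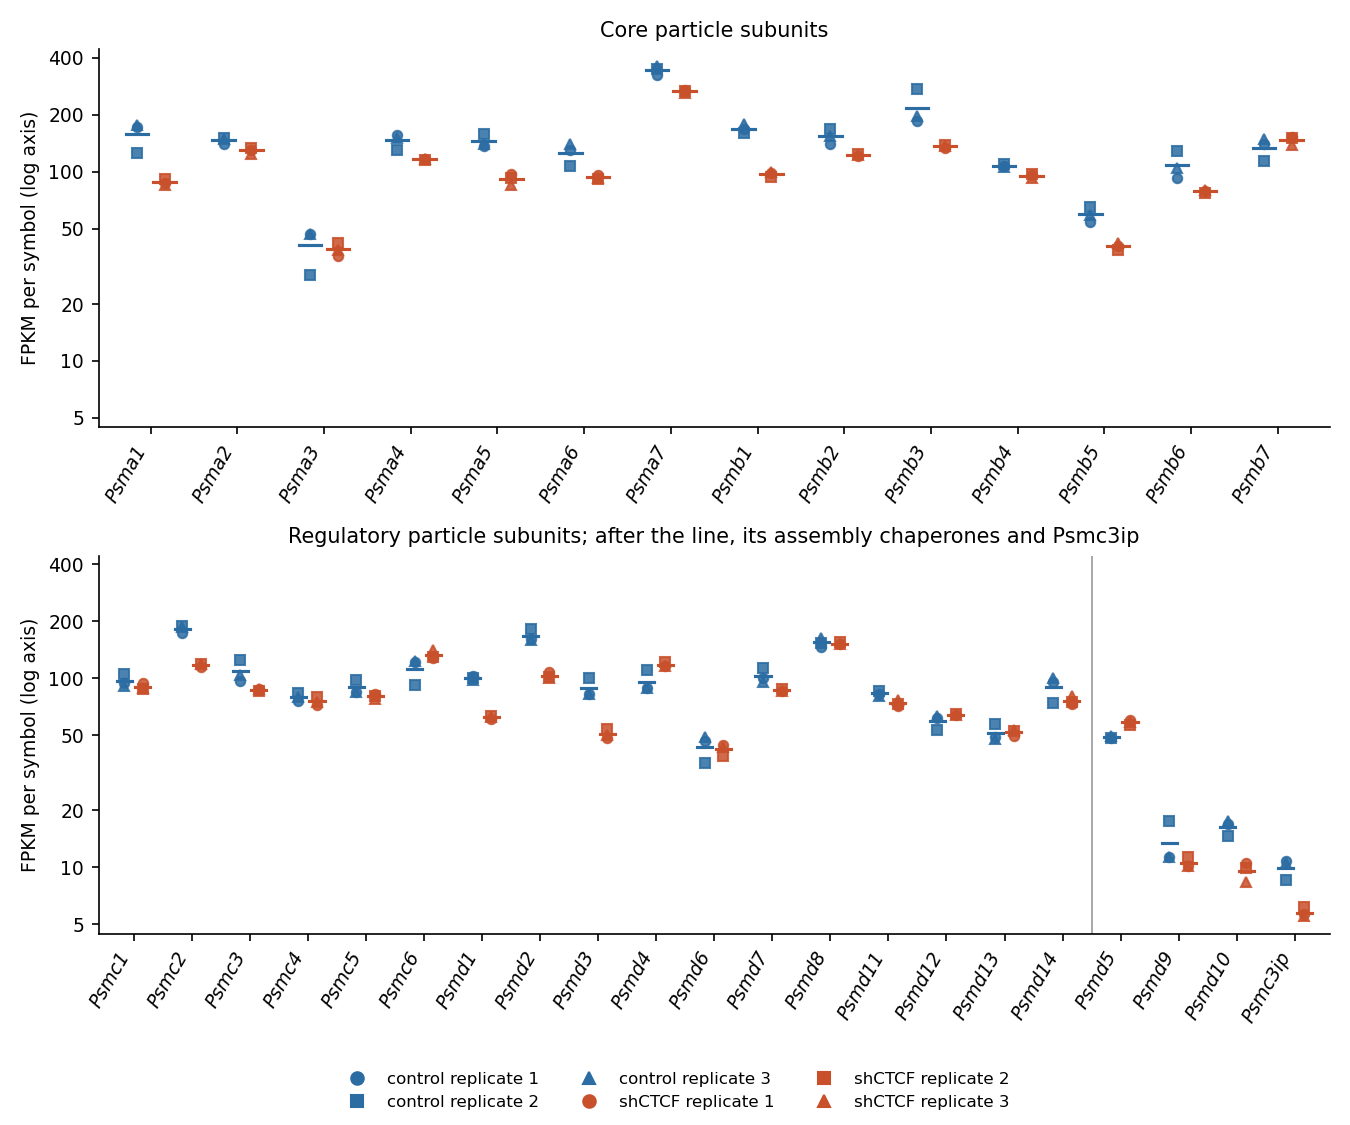
FPKM (log axis) of the 35 tested members in every sample, with control in blue and shCTCF in orange, 1 symbol shape per replicate number and a line at each group mean. The core subunit Psma7 was highest in both groups, and the shCTCF values of Psmb1 (93.8 to 99.7 FPKM) lay well below its control values (160.4 to 178.9 FPKM), while those of Psmd4 lay above its control values.

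Among the catalytic beta subunits the changes were unequal. Psmb5, which carries the chymotrypsin-like activity (chr14:55232957-55236832, minus strand, with this and all gene positions in mm9), was listed at 54.4, 65.5 and 59.2 FPKM in the control and at 40.4, 38.7 and 41.9 FPKM in shCTCF. No shCTCF sample reached a control sample, and the mean was 32.5% lower (59.7 ± 5.57 against 40.3 ± 1.59 FPKM, SD, n = 3 each). The log2 fold change of Psmb5 was -0.55 ± 0.08 (SE, limma adjusted p = 0.000494), and it was -0.35 with equal medians (limma adjusted p = 0.00612).

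Psmb6, the caspase-like subunit (chr11:70338859-70341360, plus strand), had 92.9, 129 and 104 FPKM in the control and 78.7, 77.2 and 80.4 FPKM in shCTCF. Its groups did not overlap, although control replicate 2 was well above the other controls. The log2 fold change of -0.45 ± 0.11 passed the threshold as deposited (limma adjusted p = 0.00795) but not with equal medians (-0.25, adjusted p = 0.0871). Psmb7, the trypsin-like subunit (chr2:38443566-38499426, minus strand), stood apart from these. Its control values were 139.7, 114.4 and 148.3 FPKM and its shCTCF values were 152.4, 150.6 and 139.1 FPKM, so that the groups overlapped. Psmb7 did not pass the threshold as deposited (log2 fold change 0.14 ± 0.10, limma adjusted p = 0.236), and with equal medians it was the only core subunit that was higher (0.34, adjusted p = 0.0174). Without control replicate 2 these values of Psmb7 were 0.03 and 0.24.

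The structural core subunits Psma1 and Psmb1 had the largest decreases. Psma1, of the alpha ring (chr7:121408064-121419630, minus strand), had 171.7, 126.4 and 176.4 FPKM in the control and 86.9, 91.2 and 85.4 FPKM in shCTCF. All 3 shCTCF samples were below the lowest control, which was replicate 2, and the mean was 44.5% lower. The log2 fold change was -0.83 ± 0.12 (limma adjusted p = 0.000514), and it was -0.98 without control replicate 2.

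Psmb1, of the beta ring (chr17:15612685-15635240, minus strand), fell from 167.5, 160.4 and 178.9 FPKM to 99, 93.8 and 99.7 FPKM. This was a mean decrease of 42.3%, with a tight spread in both groups (log2 fold change -0.79 ± 0.06, limma adjusted p = 1.7e-05). Psma5 (alpha ring, chr3:108059844-108082870, plus strand) was listed at 136.2, 158.8 and 140.5 FPKM in the control and at 97.1, 92.3 and 85.7 FPKM in shCTCF (log2 fold change -0.66 ± 0.08, limma adjusted p = 0.000162). Psmb3 (beta ring, chr11:97564748-97574814, plus strand) had 186.5, 272.8 and 196.6 FPKM in the control and 133.1, 139 and 137.2 FPKM in shCTCF. Control replicate 2 was by far the highest for Psmb3, and without it the log2 fold change went from -0.66 to -0.49.

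At the other end of the core were Psma3 and Psmb4. Psma3 (alpha ring, chr12:72075610-72096864, plus strand) had 47.2, 28.6 and 47 FPKM in the control and 36, 42.2 and 38.6 FPKM in shCTCF, and its groups overlapped because of control replicate 2. The log2 fold change of Psma3 was -0.04 ± 0.19 (limma adjusted p = 0.869), whereas without that library it was -0.27 and passed the threshold (limma adjusted p = 0.00829). With equal medians and without that library, Psma3 was at -0.07 and did not pass (limma adjusted p = 0.366). Psmb4 (beta ring, chr3:94688246-94690880, minus strand) had 106.7, 109.6 and 105.4 FPKM in the control and 95.9, 97.5 and 92.7 FPKM in shCTCF. This difference of 11.1% was small but free of overlap (log2 fold change -0.17 ± 0.06, limma adjusted p = 0.0267), and its sign turned with equal medians (0.033).

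The remaining core subunits lay between these. Psma2, Psma4, Psma6, Psma7 and Psmb2 had log2 fold changes from -0.18 (Psma2) to -0.42 (Psma6), and all 5 passed the threshold as deposited, while with equal medians only Psma7 did. The testis-enriched alpha subunit Psma8 was at 0 FPKM in the 3 control samples and in shCTCF replicate 2, and at 0.0642 and 0.0566 FPKM in the other two shCTCF samples, and it was not tested. Psma7, whose place Psma8 takes in the proteasomes of male germ cells, was the most abundant member in both groups, with a mean of 345 FPKM in the control and 267 FPKM in shCTCF.

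In the regulatory particle a few subunits were strongly lower, while most stayed within a small range. Psmd3, a lid subunit (chr11:98543868-98557292, plus strand), had 82.5, 100.4 and 82.6 FPKM in the control and 48.4, 54.1 and 50.2 FPKM in shCTCF. The shCTCF values were well below every control, with a mean decrease of 42.5% (log2 fold change -0.78 ± 0.09, limma adjusted p = 0.000139). The scaffold subunits of the base, which bind ubiquitin receptors and shuttle factors, moved alike. Psmd1 (chr1:87961194-88035870, plus strand) fell from 102.1, 100.7 and 98 FPKM to 60.5, 63.2 and 62 FPKM (log2 fold change -0.69 ± 0.06, limma adjusted p = 1.8e-05). Psmd2 (chr16:20651725-20663487, plus strand) fell from 160.3, 181.9 and 158.5 FPKM to 107.4, 101.1 and 99.6 FPKM (log2 fold change -0.69 ± 0.07, limma adjusted p = 6.9e-05). Neither scaffold had an overlap between the groups, and both kept their call when any library was left out.

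The ATPases of the base, which form 1 ring from 6 different subunits, were not called together. Psmc2 (chr5:21291101-21309602, plus strand) was at 172.6, 188.5 and 185.5 FPKM in the control and at 113.8, 118.1 and 118 FPKM in shCTCF (log2 fold change -0.64 ± 0.06, limma adjusted p = 3.5e-05). Psmc6 (chr14:45949499-45968746, plus strand) was at 121.5, 92.2 and 122.9 FPKM in the control and at 128.3, 129.5 and 141.4 FPKM in shCTCF. Each shCTCF sample was above each control for Psmc6, yet control replicate 2 widened the spread, and the log2 fold change of 0.25 ± 0.12 did not pass the threshold as deposited (limma adjusted p = 0.0783). With equal medians Psmc6 was higher (0.46, limma adjusted p = 0.00796). Without control replicate 2 these values were 0.12 (limma adjusted p = 0.0724) and 0.33 (limma adjusted p = 0.000886). Psmc3 was lower as deposited (-0.31, limma adjusted p = 0.0211), and Psmc1, Psmc4 and Psmc5 did not pass the threshold, with log2 fold changes between -0.15 and -0.08. Psmc1, Psmc4 and Psmc5 did not pass with equal medians and all libraries either. With equal medians and without control replicate 2 they were higher, at 0.165, 0.162 and 0.124 (limma adjusted p = 0.0251, 0.0256 and 0.0434).

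The ubiquitin receptor Psmd4, which is known to capture polyubiquitin chains (chr3:94836613-94846536, minus strand), was at 88.6, 110.7 and 88.3 FPKM in the control and at 116.5, 121.7 and 115.7 FPKM in shCTCF. The groups did not overlap and the mean was 23.1% higher (95.8 ± 12.8 against 118 ± 3.27 FPKM). Among the regulatory subunits matched by the rule, Psmd4 was the only one called higher as deposited (log2 fold change 0.31 ± 0.10, limma adjusted p = 0.0201). The value was 0.50 with equal medians. As deposited the call was lost without control replicate 1 (0.25, adjusted p = 0.0637), control replicate 3 (0.25, adjusted p = 0.0688), shCTCF replicate 1 (0.31, adjusted p = 0.0536) or shCTCF replicate 2 (0.28, adjusted p = 0.0718) in the limma fit, whereas with equal medians it was kept in each case. Both Psmd4 transcripts with signal contributed, and the less abundant one made up 33.5% of the control mean and 31.9% of the shCTCF mean.

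The lid deubiquitinase Psmd14, which cuts ubiquitin chains from the substrate (chr2:61549751-61638433, plus strand), was at 95.8, 74.1 and 99.7 FPKM in the control and at 72.7, 74.7 and 80.7 FPKM in shCTCF. Control replicate 2 lay among the shCTCF samples. The log2 fold change was -0.23 ± 0.12 (limma adjusted p = 0.11), and without control replicate 2 it was -0.36 and passed the threshold (limma adjusted p = 0.000604). Psmd12 (lid, chr11:107340842-107359350, plus strand) had 61.5, 53.5 and 63 FPKM in the control and 64.1, 64.5 and 63.5 FPKM in shCTCF, which is a separation of less than 1 FPKM between the nearest samples. Psmd12 did not pass the threshold as deposited (0.11 ± 0.08, limma adjusted p = 0.221) and was higher with equal medians (0.31, limma adjusted p = 0.00742), and without control replicate 2 the values were 0.04 and 0.24.

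The other lid subunits changed little. Psmd7 (-0.24) and Psmd11 (-0.17) were lower as deposited, and Psmd6, Psmd8 and Psmd13 had log2 fold changes between -0.04 and 0.02 that did not pass the threshold. Without control replicate 2, Psmd6 was lower as deposited (-0.17, limma adjusted p = 0.0432), where the median of all symbols was -0.18. Psmd6 did not pass without that library with equal medians (0.028, limma adjusted p = 0.726). With all libraries and equal medians, Psmd8 (0.18) and Psmd13 (0.21) were higher, with limma adjusted p-values of 0.0354 and 0.0492. Psmd7 and Psmd11 did not pass there. The number of regulatory subunits called as deposited was 8 in all, and it was 4 without shCTCF replicate 1 and 5 without shCTCF replicate 2, so the smaller calls depended on which libraries were included.

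**Figure D2:**
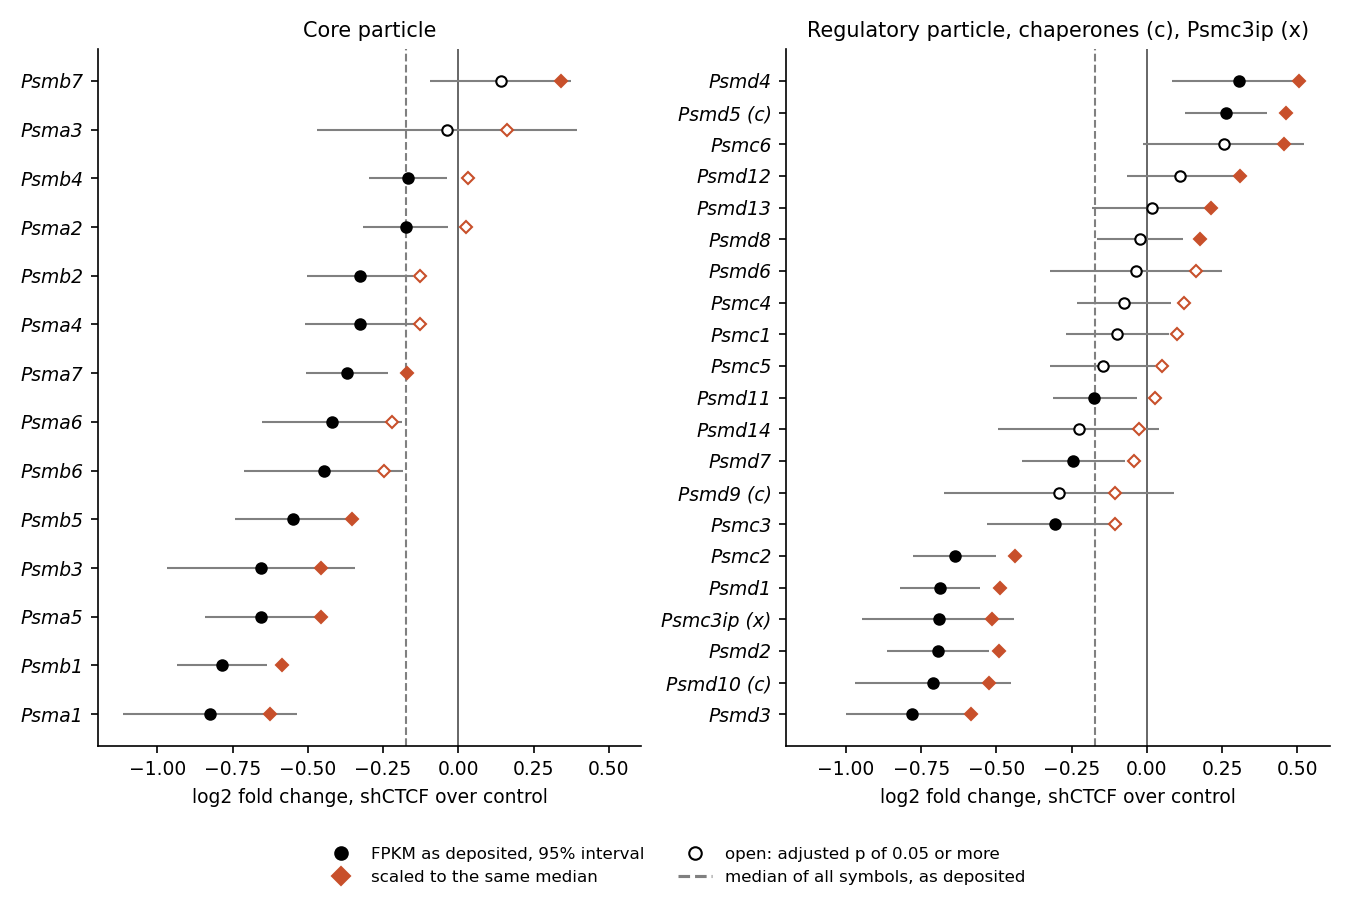
log2 fold change of each tested member, shCTCF over control, with its 95% interval from limma on the FPKM as deposited (black) and the value after scaling to equal medians (orange); filled marks passed an adjusted p of 0.05 and the dashed line is the median of all symbols (-0.17). Members between the dashed line and 0, such as Psmb4 and Psmd8, changed sign with the scaling, while Psma1, Psmb1, Psmd1, Psmd2 and Psmd3 were lower and Psmd4 higher in both.

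Ratios within a sample do not depend on the scaling between samples, so the particles were also compared this way. The mean FPKM per core subunit, without Psma8, was 1.46, 1.43 and 1.52 times the mean per regulatory subunit in the control and 1.30, 1.29 and 1.25 times in shCTCF. All shCTCF ratios were below all control ratios, and the mean ratio was 12.7% lower. The summed FPKM of the core was 2061 ± 58.6 in the control and 1544 ± 22.2 in shCTCF (SD, n = 3 each, 25.1% lower), and that of the regulatory particle was 1704 ± 50.1 and 1462 ± 10.9 (14.2% lower). Both together made up 0.838% ± 0.00377 of all FPKM in the control and 0.662% ± 0.00212 in shCTCF.

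Within each class the proportions between subunits changed, and the pairs below were picked after their values were seen. Psmb7 over Psmb1 was 0.834, 0.713 and 0.829 in the control and 1.54, 1.61 and 1.40 in shCTCF. Psmd4 over Psmd3 was 1.07, 1.10 and 1.07 in the control and 2.41, 2.25 and 2.31 in shCTCF, which was 2.15 times higher in the mean. Psmc6 over Psmc2, of the ATPase ring, was 0.704, 0.489 and 0.663 in the control and 1.13, 1.10 and 1.20 in shCTCF. The subunits of a particle, which are present in equal numbers in the assembled complex, were thus not in equal proportion as mRNA in either group, and the coefficient of variation over the 14 core subunits was 50% ± 3.66 in the control and 50.1% ± 0.712 in shCTCF. Over the 17 regulatory subunits it was 38.3% ± 1.96 in the control and 35.3% ± 0.0712 in shCTCF, without overlap.

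The order of the levels changed accordingly. In the control the highest were Psma7 (345 FPKM), Psmb3 (219 FPKM, SD 47.2), Psmc2 (182 FPKM, SD 8.43) and Psmb1 (169 FPKM). Psmb3 was above Psmc2 in each control sample, by unequal amounts (186.5, 272.8 and 196.6 against 172.6, 188.5 and 185.5 FPKM). In shCTCF the order was Psma7 (267 FPKM), Psmd8 (152 FPKM), Psmb7 (147 FPKM, SD 7.2) and Psmb3 (136 FPKM). Psmd8 and Psmb7 changed order between the shCTCF samples (150.8, 154.4 and 150.8 against 152.4, 150.6 and 139.1 FPKM). Among the 32 subunits Psma1 went from place 6 to 17, Psmb1 from 4 to 12, Psmd4 from 21 to 8, and Psmb7 from 12 to 3.

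**Figure D3:**
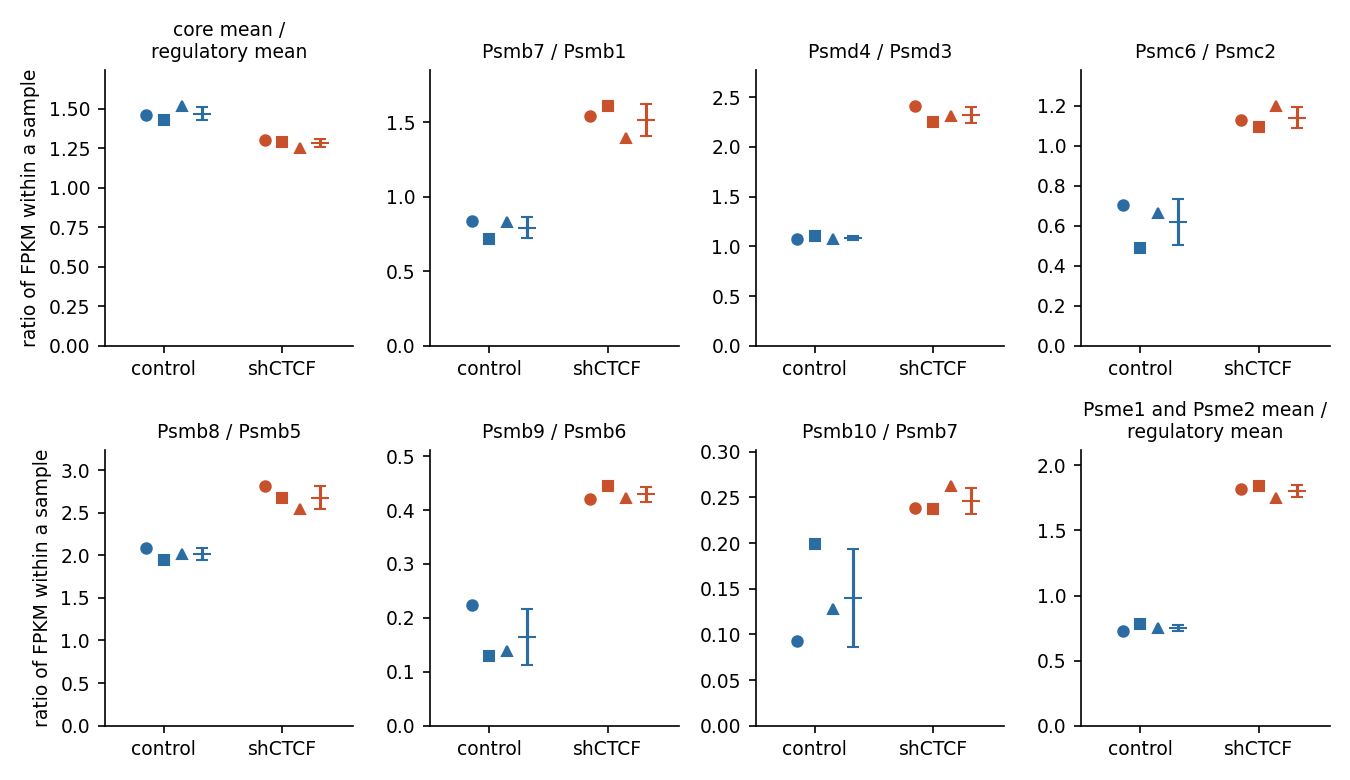
Ratios of FPKM within each sample (no unit, axes from 0), with 3 control samples in blue, 3 shCTCF samples in orange and the mean ± SD beside them. The core over regulatory ratio was lower in every shCTCF sample, and the ratios of Psmb7 to Psmb1, Psmd4 to Psmd3, Psmc6 to Psmc2, of the immune-type to the constitutive catalytic subunits, and of Psme1 and Psme2 to the regulatory particle were higher.

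The deposited count table, made by another counter from the same libraries, gave the same pattern as the FPKM with equal medians. Of the 36 symbols 31 were tested with edgeR, of which 9 were lower and 5 were higher. Over all 7341 symbols tested there, 34.3% were lower and 34.8% were higher, and their median log2 fold change was -0.02. A fragment that overlapped several transcript accessions was not counted, so the 28 members with 1 accession are the ones with a usable count. For all 28 the call on counts equalled the call on the FPKM with equal medians, while 15 of them had the same call on the FPKM as deposited. The log2 fold changes of the 28 differed between the tables by 0.01 in the median and by 0.17 at most, for Psmc3ip.

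The counts of Psma1 were 2636, 505 and 2906 fragments in the control and 1212, 1142 and 1388 in shCTCF, where the low second control value belongs to the small library. In CPM, the counts scaled to library size after TMM normalization, Psma1 fell from 353 ± 62 to 223 ± 5.59 CPM (log2 fold change -0.68 ± 0.11, edgeR adjusted p = 0.000146). Psmb1 fell from 326 ± 28.7 to 213 ± 5.43 CPM (-0.62 ± 0.08, edgeR adjusted p = 2.3e-05), and Psmd3 from 316 ± 34.7 to 212 ± 6.78 CPM (-0.57 ± 0.09, edgeR adjusted p = 8.9e-05). Psmb7 rose from 237 ± 24.7 to 307 ± 12.4 CPM (0.36 ± 0.09, edgeR adjusted p = 0.00258), and Psmc6 from 300 ± 49.6 to 404 ± 18.8 CPM (0.41 ± 0.11, edgeR adjusted p = 0.00381). Psma3, Psmd2, Psmd4 and Psmd10 were not tested on counts and could not be checked in this way. Nor could Psma6, Psma7 and Psmd5, which have several accessions and had at most 80, 30 and 13 fragments in a sample. The counts of Psma4 exclude fragments shared with the overlapping transcript AY074887, those of Psmb5 fragments shared with Mir686, and those of Psmc3ip fragments shared with Mlx.

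**Figure D4:**
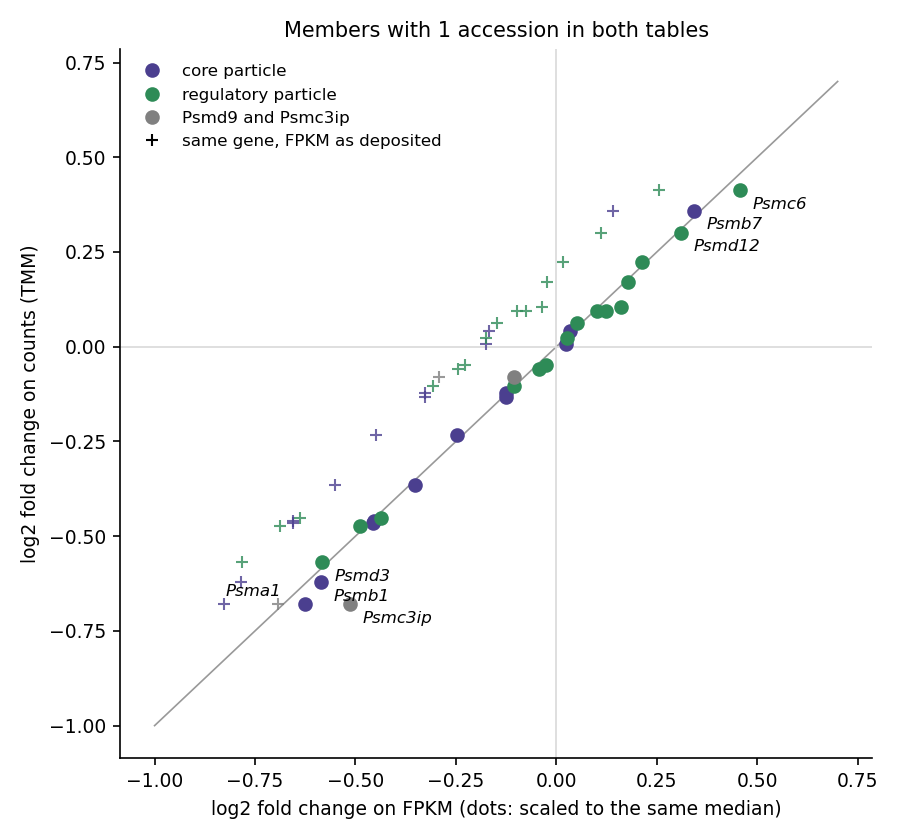
log2 fold change on counts (vertical axis) against that on FPKM (horizontal axis) for the 28 members with 1 accession, as dots for FPKM scaled to equal medians and as crosses for FPKM as deposited, with the line of equal values. The dots lie along the line, within 0.17, and the crosses are shifted to the left by about the median of all symbols.

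The 4 symbols that are not subunits were divided. Psmd5 was at 48.3, 48.1 and 49.3 FPKM in the control and at 60.1, 56.8 and 58.6 FPKM in shCTCF (20.4% higher, log2 fold change 0.26 ± 0.06, limma adjusted p = 0.00437). Psmd10, also called gankyrin, was 41.2% lower (16.3 ± 1.51 against 9.6 ± 1.16 FPKM, log2 fold change -0.71 ± 0.11, limma adjusted p = 0.000631), and Psmd9 did not pass the threshold (-0.29 ± 0.16, limma adjusted p = 0.143). The value of Psmd5 was 0.21 and no longer past the threshold when only its transcript of highest mean was used (limma adjusted p = 0.0575). Psmc3ip (chr11:100953455-100956749, minus strand) was at 10.8, 8.55 and 10.6 FPKM in the control and at 5.64, 6.14 and 5.49 FPKM in shCTCF, with no overlap (-0.69 ± 0.11, limma adjusted p = 0.000636).

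Upstream sequence of 6 members is shown because members with the same short match differed in direction. Of the 36 symbols 29 had an entry in the RefSeq promoter table (GRCm38.p6, 250 bases before and 50 after the start), with 31 entries, and Psma8, Psmb1, Psmb2, Psmb7, Psmc3, Psmd3 and Psmd7 had none. Of 10 motifs searched on both strands, TGACNNNGC is the core of the antioxidant response element that Nfe2l1 and Nfe2l2 are known to bind. It was in 16.1% of the member entries (Psmb5, Psmb6, Psmc6, Psmd9 and Psmd12) and in 12.4% of all 32851 entries. CCGGAAG, the core bound by ETS family factors, was in 38.7% of the member entries and in 8.86% of all entries. GGGCGG, bound by Sp1, was in 58.1% and 35.7%, CCAAT in 38.7% and 37.4%, and AGGGGGC, from the CTCF consensus, in 12.9% and 10.6%. A second string from that consensus, AGGTGGC, was in 3.23% of the member entries and in 6.15% of all. The palindromic motif of nuclear respiratory factor 1 was in 19.4% of the member entries (Psma2, Psma3, Psma4, Psmc4, Psmc5 and Psmd14) and in 4.6% of all entries. The cyclic AMP element TGACGTCA was in no member entry and in 1.79% of all. TGACNNNGC and the motif of nuclear respiratory factor 1 can overlap at their ends, and TGACNNNGC and TGACGTCA cannot. These motifs were picked for the text after their shares were seen. Each line holds 100 bases of upstream sequence around the match, 5′ to 3′ on the strand of the gene, with the match in capitals.
Psmb5: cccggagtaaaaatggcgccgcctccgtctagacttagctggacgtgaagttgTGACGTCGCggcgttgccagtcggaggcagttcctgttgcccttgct
Psmb6: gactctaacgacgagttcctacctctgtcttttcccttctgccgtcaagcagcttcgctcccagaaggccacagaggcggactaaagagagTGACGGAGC
Psmc6: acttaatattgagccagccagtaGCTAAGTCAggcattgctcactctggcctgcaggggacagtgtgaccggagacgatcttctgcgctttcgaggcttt
Psmd12: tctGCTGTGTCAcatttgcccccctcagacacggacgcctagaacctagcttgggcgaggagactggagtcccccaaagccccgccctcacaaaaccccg
Psmc2: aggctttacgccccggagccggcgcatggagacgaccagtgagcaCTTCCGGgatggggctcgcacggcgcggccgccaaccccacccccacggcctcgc
Psmd4: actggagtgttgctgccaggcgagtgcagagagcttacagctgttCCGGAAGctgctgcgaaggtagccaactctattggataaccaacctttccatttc

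The first 4 capitals mark TGACNNNGC, read on the other strand in Psmc6 and Psmd12, and the last 2 mark CCGGAAG, read on the other strand in Psmc2. The windows are chr14:54617996-54618095 (minus strand) for Psmb5, chr11:70525257-70525356 (plus) for Psmb6, chr14:45329574-45329673 (plus) for Psmc6, chr11:107479278-107479377 (plus) for Psmd12, chr5:21785146-21785245 (plus) for Psmc2 and chr3:95042685-95042784 (minus) for Psmd4, all in GRCm38.p6. The match began 47 bases before the start in Psmb5, 9 in Psmb6, 227 in Psmc6, 247 in Psmd12, 84 in Psmc2 and 125 in Psmd4. Of the TGACNNNGC holders, Psmb5 and Psmb6 were lower on the FPKM as deposited, where Psmc6, Psmd12 and Psmd9 were not called. With equal medians Psmb5 was lower, Psmc6 and Psmd12 were higher, and Psmb6 and Psmd9 were not called. Of the CCGGAAG holders shown, Psmc2 was lower and Psmd4 higher. A match is a description of letters and not a bound site.

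Beside the constitutive set, the immune-type catalytic subunits were higher in 2 of 3 cases, where 28.8% of all symbols tested were higher. Psmb9 was at 20.8, 16.6 and 14.6 FPKM in the control and at 33.1, 34.3 and 33.9 FPKM in shCTCF (log2 fold change 0.94 ± 0.12, limma adjusted p = 0.000212). Psmb10 was at 13, 22.8 and 18.9 FPKM in the control and at 36.3, 35.8 and 36.5 FPKM in shCTCF (0.99 ± 0.17, limma adjusted p = 0.00123). In both genes all shCTCF samples were above all controls. Psmb8 was the exception, with 113.3, 127.3 and 119.1 FPKM in the control and 113.5, 103.2 and 106.7 FPKM in shCTCF (-0.15 ± 0.07, limma adjusted p = 0.0809). The thymus-specific Psmb11 was at 0 in the control and at most 0.026 FPKM in shCTCF.

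Each immune-type subunit replaces a given constitutive one during assembly. The ratio of Psmb9 to Psmb6 was 0.223, 0.128 and 0.139 in the control and 0.421, 0.445 and 0.422 in shCTCF. The ratio of Psmb10 to Psmb7 was 0.0932, 0.199 and 0.127 in the control and 0.238, 0.238 and 0.262 in shCTCF, and that of Psmb8 to Psmb5 was 2.08, 1.94 and 2.01 in the control and 2.81, 2.67 and 2.55 in shCTCF. Psmb8 already exceeded Psmb5 in the control, and of the summed FPKM of the 6 catalytic subunits the immune-type ones made up 33.9% ± 1.1 in the control and 40% ± 0.534 in shCTCF. The ratio of Psmb8 to Psmb5 rose with Psmb8 not called and Psmb5 lower. Genes of the interferon response were also higher, in all 9 followed (such as Ifit1 and Isg15), beside 28.8% of all symbols. These 9 were chosen with earlier results of these data known, so their count is a description and not a test. Their summed level was 27.6 to 34.9 FPKM in the control and 739.7 to 799.5 FPKM in shCTCF, and their part in the ratios was not tested.

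The alternative caps were divided. Psme1, which with Psme2 forms the interferon-inducible PA28 cap, had 100.6, 123.1 and 111 FPKM in the control and 188, 196.1 and 188.7 FPKM in shCTCF (0.77 ± 0.08, limma adjusted p = 6.3e-05). Psme2 had 41, 37.7 and 38 FPKM in the control and 121.6, 121.5 and 113.9 FPKM in shCTCF (1.59 ± 0.07, limma adjusted p = 5.6e-07), although fragments of its near-identical copy Psme2b may be assigned to it. Psme3, which forms the nuclear cap, was lower (-0.53, limma adjusted p = 0.000269), and the cap Psme4 and the inhibitor Psmf1 did not pass the threshold. The mean of Psme1 and Psme2 was 0.725 to 0.777 times the mean per regulatory subunit in the control and 1.75 to 1.84 times in shCTCF.

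The 5 chaperones that build the core had a median log2 fold change of -0.97, beside -0.40 for the core itself. Psmg1 was at 48.4, 49.1 and 49.4 FPKM in the control and at 18.9, 20.8 and 19.7 FPKM in shCTCF (-1.27 ± 0.07, limma adjusted p = 1.7e-06). Psmg2 (-0.97), Psmg3 (-0.73) and Psmg4 (-1.09) were also lower, and the summed level of the 4 fell by 53.5% from 125 ± 5.99 to 58.1 ± 1.85 FPKM. Pomp, the chaperone of beta subunit entry, was not called as deposited (0.06, limma adjusted p = 0.547) and was higher with equal medians (0.26, limma adjusted p = 0.0224) and on counts (0.26, edgeR adjusted p = 0.017). Of the 2 regulatory subunits with other names, the ubiquitin receptor Adrm1 was lower (-0.56, limma adjusted p = 0.000619) and Sem1 was higher (0.24, limma adjusted p = 0.0049).

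Of 11 factors that bind the proteasome 5 were lower and 2 were higher as deposited, and 3 were lower and 3 higher with equal medians. The 45.5% that were lower as deposited lay near the 44.2% of all symbols, and the median log2 fold change of the 11, -0.17, equalled that of all symbols at this precision. The shuttle factors Ubqln4 (-0.998), Ubqln2 (-0.75) and Rad23b (-0.25), the deubiquitinase Uchl5 (-0.54) and the adaptor Ecpas (-0.61) were lower. Zfand2a, which is known to be induced by arsenite and heat, rose from 10.8, 12.2 and 11 FPKM to 90.3, 103.4 and 109.3 FPKM (3.04 ± 0.09, limma adjusted p = 1.4e-07), and Zfand5 was higher as well (0.73). The deubiquitinase Usp14 was at 221, 100.5 and 223 FPKM in the control and at 276.2, 270.5 and 286.5 FPKM in shCTCF, and did not pass the threshold (0.70 ± 0.28, limma adjusted p = 0.0526). Usp14 was higher with equal medians (0.90, limma adjusted p = 0.0205), and without control replicate 2, its lowest value, it was higher by a smaller amount (0.32, limma adjusted p = 0.000239). Without that library 7 of the 11 factors were lower and 3 were higher (63.6% and 27.3%), beside 47.8% and 31.3% of all symbols in that fit.

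Of the 5 genes around Nfe2l1, which drives proteasome genes, Nfe2l1 itself was at 123.7, 143.3 and 127.5 FPKM in the control and at 125.5, 132.6 and 130.7 FPKM in shCTCF (-0.02 ± 0.07, limma adjusted p = 0.825), and with equal medians its value was 0.18 (limma adjusted p = 0.0498). Nfe2l2 was higher (0.23, limma adjusted p = 0.012), Vcp, the segregase that extracts Nfe2l1 from the membrane, was lower (-0.69, limma adjusted p = 1.5e-05), and Ddi2 and Ngly1 did not pass. The polyubiquitin gene Ubb (0.57) was higher, and Rps27a (-0.49), which encodes ubiquitin fused to a ribosomal protein, and the ubiquitin-activating enzyme Uba1 (-0.88) were lower. Ubb and Rps27a share near-identical ubiquitin sequence, so the assignment of fragments between them is uncertain.

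**Figure D5:**
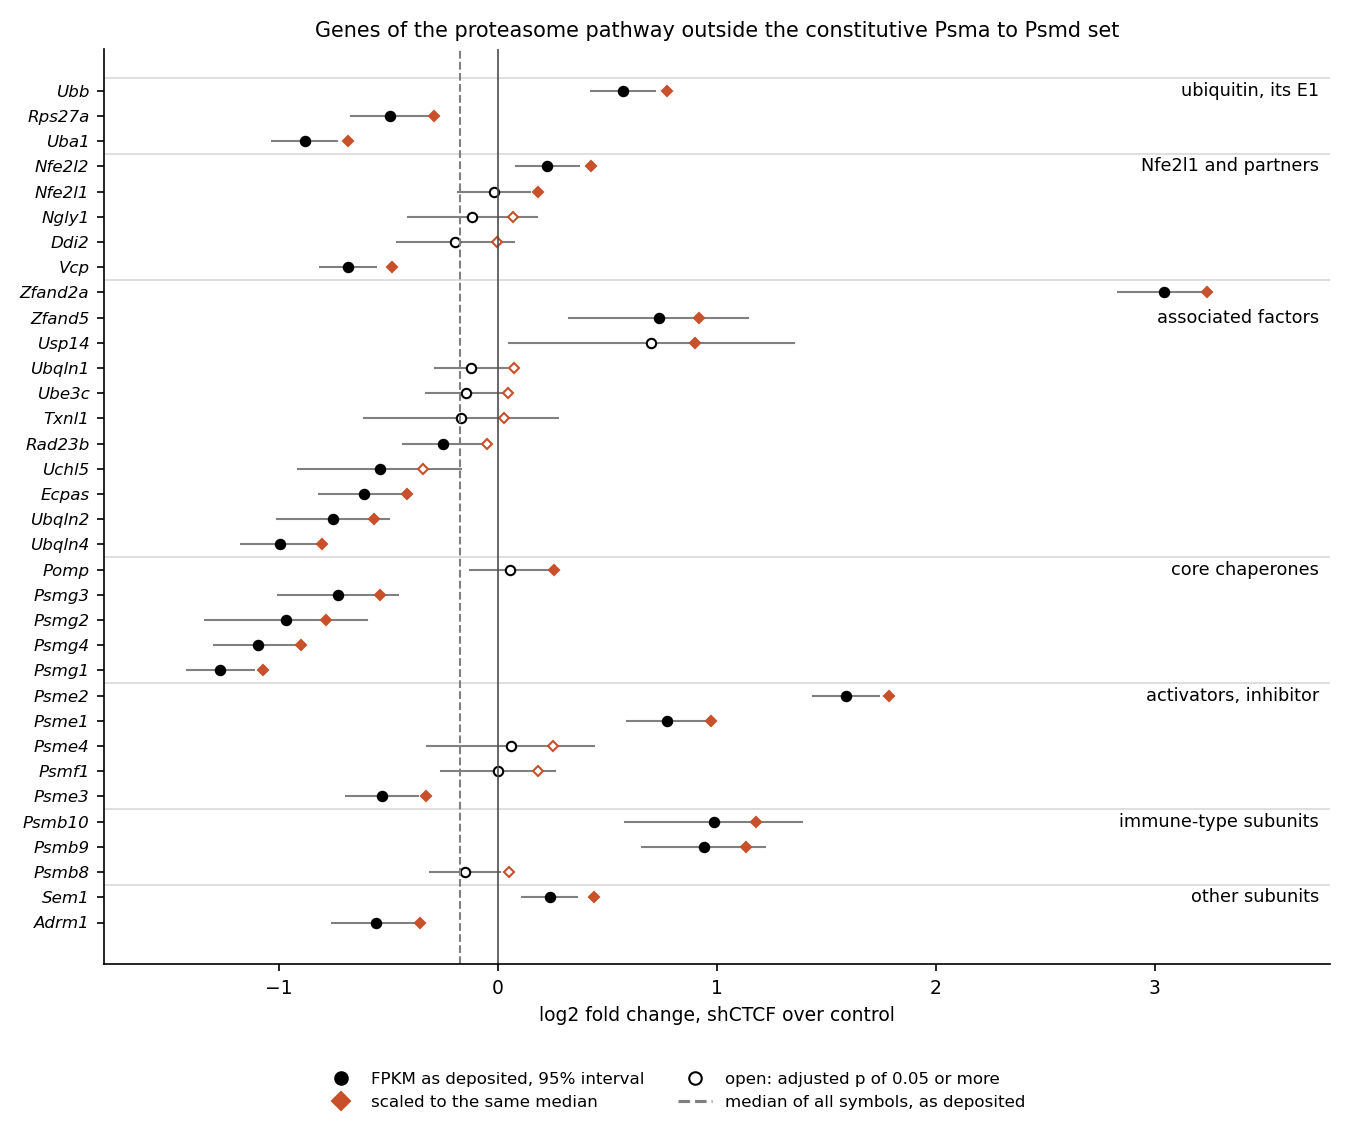
log2 fold change, shCTCF over control, of proteasome genes outside the constitutive set, grouped by role, with the 95% interval on the FPKM as deposited (black), the value with equal medians (orange) and filled marks for an adjusted p under 0.05. The core chaperones Psmg1 to Psmg4 and the shuttle factors Ubqln2 and Ubqln4 lay to the left of the dashed median of all symbols (-0.17), and Psmb9, Psmb10, Psme1, Psme2 and Zfand2a to the right.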

How the data were processed

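RNA-seq was measured in 3 control and 3 shCTCF samples, grouped by the labels. The authors aligned stranded mRNA reads to mm9 with HISAT2 (version given as 4.8.2). The deposited counts are whole fragments per RefSeq accession from featureCounts 1.6.2, without normalization and without use of strand, and FPKM values were made by the authors with Cufflinks 2.2.1 and normalized for depth. Overlapping genes could not be told apart by strand in the counts. Value columns left out numbered 0 in each table.

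Symbols were taken from a RefSeq table (GRCm38.p6, names only) and values were summed per symbol. FPKM was tested as log2(FPKM + 1) with limma 3.58.1 (trend, mean of at least 1 FPKM), so fold changes are on that scale and understate the change of low genes. Counts were tested with edgeR 4.0.16 (quasi-likelihood, TMM, filterByExpr, R 4.3.3). Tests were two-sided with Benjamini-Hochberg adjustment over all symbols tested and a threshold of 0.05, and were tested on simulated data first. Total counts were between 1686052 and 7044272 per sample. Unnamed accessions took up to 0.603% of a sample's counts.

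Members and gene lists were chosen with earlier results of these data known. Given in full were the catalytic subunits, Psmd4, Psmd14, Psma8, Psmc3ip, the immune-type subunits and the 3 highest and 3 lowest members of each particle by log2 fold change, with Psmb3 added since it equalled Psma5 at the precision given. Psmc2, Psmd5 and several companion genes were also given in full, chosen after their values were seen. From the other proteasome lists the members past the threshold were named, and the interferon and marker lists were given by counts and sums. Some genes of the other lists are not reported here. Other scalings, pseudocounts, filters, DESeq2 1.42.0, a replicate block and the omission of each replicate were alternatives. Scaling to equal medians combined with the block or with the omission of a replicate was added after seeing the data.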

Additional observations from a re-analysis of the deposited data

How the results depend on the processing

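The 23 members called on the FPKM as deposited became 19 with equal medians and 14 in the count table, and the members called higher became 7 with equal medians, 4 with quantile normalization, 5 in the count table and 1 with the transcript of highest mean per symbol. Core subunits called were 12 as deposited, 7 with equal medians and 6 in the count table. With equal medians the members called were 14 without shCTCF replicate 1 and 15 without shCTCF replicate 2. On the FPKM as deposited, leaving out each library gave 1 to 2 members called higher and 4 to 10 regulatory subunits called. With equal medians and without control replicate 2, 10 members were called higher. In that fit 13 regulatory subunits were called, 8 higher and 5 lower. Without a filter the medians relative to all symbols were -0.38 for the core and -0.15 for the regulatory particle, since 14756 symbols of low or no signal then enter the median of all symbols. Ctcf kept its call under every alternative run on it, and both smaller pseudocounts left 23 members called.

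No member was called in both directions over the 36 fits run (0 of 36 members), and, except for Psma7, the signs that turned were those of members with small changes. With equal medians the log2 fold changes were 0.025 for Psma2, 0.16 for Psma3, 0.033 for Psmb4, 0.10 for Psmc1, 0.12 for Psmc4, 0.052 for Psmc5, 0.026 for Psmd11, 0.16 for Psmd6 and 0.18 for Psmd8. With quantile normalization they were 0.11 for Psma3, 0.022 for Psmc4 and 0.11 for Psmd6. In the count table they were 0.008 for Psma2, 0.041 for Psmb4, 0.094 for Psmc1, 0.093 for Psmc4, 0.062 for Psmc5, 0.023 for Psmd11, 0.10 for Psmd6 and 0.17 for Psmd8. Psma7, with 2 accessions and few counts that could be assigned, had 0.063 there against -0.37 on FPKM. Counts scaled by library size alone gave -0.16 for Psma2, -0.13 for Psmb4, -0.077 for Psmc1, -0.077 for Psmc4, -0.11 for Psmc5, -0.15 for Psmd11 and -0.064 for Psmd6, and counts of 1-accession symbols alone gave -0.001 for Psma2. Leaving out each library gave on FPKM -0.27 to 0.082 for Psma3, -0.17 to 0.05 for Psmd6, -0.062 to 0.018 for Psmd8 and -0.032 to 0.097 for Psmd13, and on counts -0.026 to 0.052 for Psma2, -0.14 to 0.036 for Psmd14 and -0.18 to 0.056 for Psmd9. The cause of these turns was not tested.

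The numbers of the replicates did not pair the samples, with correlations of same-numbered deviations between -0.041 and 0.039 on FPKM. With the replicate number as a block 21 members were called on FPKM as deposited, 16 with equal medians and 12 on counts. Of 23 calls as deposited, 17 were kept with each library left out in turn. Without control replicate 2, the smallest library, 26 members were called. The depth behind a single FPKM value was not given, and fragments shared by accessions were not counted for the 8 members with several.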
